A study of Homo sapiens with 8 samples.

Results

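Kruppel-like factors are zinc finger transcription factors, and 10 of their genes (KLF2, KLF3, KLF4, KLF5, KLF6, KLF7, KLF9, KLF10, KLF11 and KLF13) are described here across 8 RNA libraries of RD cells. The 10 genes were taken from a list, matched by symbol to the Ensembl gene identifiers of the 58302 genes in each deposited count table, and all 10 were found. RD is an established human cell line from a rhabdomyosarcoma, which is a tumour with features of skeletal muscle. The control group carried a scrambled short hairpin RNA and the shPROX1 group carried a hairpin against PROX1, a homeobox transcription factor, with 4 libraries of total RNA in each group and the same culture medium for both. The labels give 1 hairpin name per group and do not say whether the cells were clones or pools. The series design calls the libraries biological replicates. As nothing else in the labels places them in separate cultures, p values measure only the spread between these libraries. In bulk RNA, a lower level in every cell and fewer cells with a transcript cannot be told apart.

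The family shares a set of zinc fingers at the carboxyl end that binds GC-rich DNA, in particular GC boxes and CACCC boxes, while the rest of each protein differs and sets whether it activates or represses. KLF2, KLF4, KLF5, KLF6 and KLF7 are mostly described as activators that recruit acetyltransferases. KLF3 represses through the CtBP corepressors, and KLF9, KLF10, KLF11 and KLF13 can recruit the SIN3A corepressor. Several members are induced within minutes to hours by serum, growth factors or stress, KLF10 and KLF11 by TGF-beta, KLF9 by glucocorticoids, and KLF2 and KLF4 through the kinase ERK5 and MEF2 factors.

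Library totals ran from 3747090 to 4865161 counts, so that a count of 0 allowed up to 0.617 to 0.801 CPM (counts per 1000000 counts of the library, with 3 counts as the limit and for counting error only). PROX1 itself (ENSG00000117707, plus strand of chromosome 1, 213983181 to 214041502) had 85, 66, 69 and 105 counts in control against 33, 42, 34 and 35 in shPROX1. It fell without overlap (18.6 ± 2.58 against 8.79 ± 1.15 CPM, SD, n = 4 per group, log2 change -1.07 ± 0.15 SE, edgeR quasi-likelihood adjusted p = 4.89e-06). Of 12 skeletal muscle marker genes 10 passed the filter on low counts, and 8 of these were lower and 0 higher in shPROX1 by edgeR, where 17.9% of all tested genes were lower and 17.3% higher. Unadjusted p was under 0.05 for 8 of these muscle genes, all lower, and DESeq2 and limma voom also called 8 lower and 0 higher. Their summed level was 2869 to 2998 CPM in control and 1903 to 1964 CPM in shPROX1, and MYF5 was at 0 in all libraries. Of 8 endothelial markers, CDH5 was at 0 and the summed level (42.3 to 59.6 CPM in control, 43.9 to 49.2 CPM in shPROX1) came mostly from TEK. Blood markers summed to at most 2.40 CPM in any library, with CD3E, HBB and HBA1 at 0. Of 8 epithelial markers KRT5 and KRT14 were at 0, and the summed level of 177 to 207 CPM in control and 256 to 281 CPM in shPROX1 came mostly from KRT18. Of 8 fibroblast markers 3 passed the filter and all 3 rose (17.3% of all tested genes did), with 133 to 151 CPM in control and 167 to 198 CPM in shPROX1 for the list, while DCN, LUM and PDGFRA stayed under 1 CPM on average in both groups. Mitochondrial transcripts made up 0.0980% to 0.702% of counts in control and 0.120% to 0.278% in shPROX1. The part of these shifts in the KLF values was not tested.

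Of the 10 KLF genes, 9 passed the filter on low counts, and after PROX1 silencing 3 of them rose (KLF5, KLF6 and KLF10), 1 fell (KLF11) and 5 did not pass the test. The test was edgeR's quasi-likelihood F test with Benjamini-Hochberg adjustment over 12392 genes and a threshold of 0.05. It called 35.2% of all tested genes, 17.3% higher and 17.9% lower, so the 4 of 9 members (44.4%) lie near the share of called genes in general. In 5 of the 9 members, the 4 called ones and KLF13, no shPROX1 library fell within the range of the control group, against 32.3% of all tested genes. The median log2 change of the 9 members was 0.10, beside -0.01 over all tested genes. The median size of the change regardless of sign was 0.38, beside 0.18 over all tested genes. This 0.38 is the value of KLF4, which was not called, and the comparison was not matched for expression level.

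**Figure D1:**
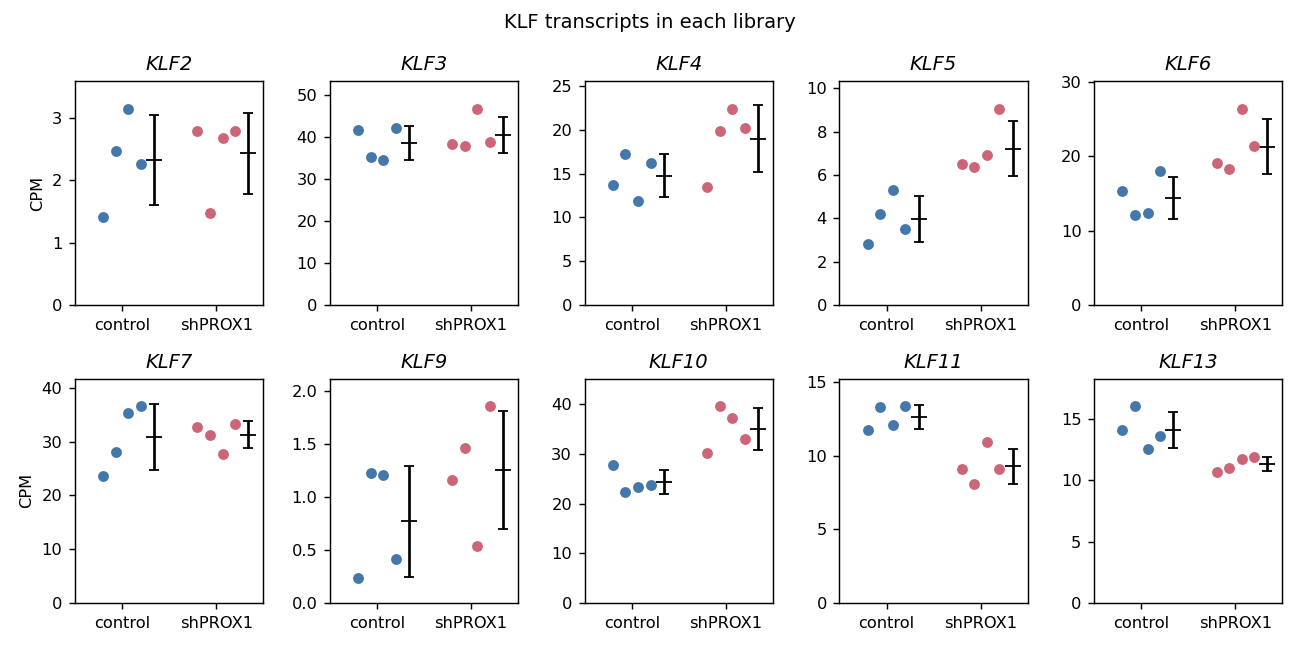
CPM of the 10 KLF genes in each of the 4 control and 4 shPROX1 libraries (points; vertical axis from 0), with the mean and SD beside each group. The groups do not overlap for KLF5, KLF6 and KLF10 (higher in shPROX1) and for KLF11 and KLF13 (lower), and the panels for KLF2, KLF3, KLF4, KLF7 and KLF9 overlap.

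Among the activators, KLF5 showed the largest change of the 10 genes. KLF5 is known for promoting proliferation in gut epithelium and smooth muscle, and its gene (ENSG00000102554) lies on the plus strand of chromosome 13, 73054976 to 73077542, GRCh38. Its level was 2.83, 4.19, 5.32 and 3.49 CPM in control replicates 1 to 4 and 6.52, 6.36, 6.94 and 9.07 CPM in shPROX1 replicates 1 to 4. All 4 shPROX1 libraries lay above all control libraries, with shPROX1 replicate 4 the highest. KLF5 rose 1.86-fold (95% interval 1.34 to 2.59, log2 change 0.90 ± 0.23, edgeR adjusted p = 0.00318). These values rest on 12 to 22 counts per control library and 26 to 39 per shPROX1 library. Of 10528 protein-coding genes of at least 5 CPM, MAST2 (Pearson r = 0.974 over 8 libraries), STYK1 (r = 0.969) and PMM2 (r = 0.964) had the log2 CPM profile most like that of KLF5. They are the first of 120 genes with r over 0.90. These correlations hold the difference between the groups and are a description.

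KLF6 came next among the activators. KLF6 is a factor of the response to injury and is lost in some carcinomas, and its gene (ENSG00000067082) lies on the minus strand of chromosome 10, 3775996 to 3785281. Its level was 15.3, 12.1, 12.3 and 18.1 CPM in control against 19.1, 18.4, 26.4 and 21.4 CPM in shPROX1. The groups were separated by a narrow margin, since control replicate 4 (18.1 CPM) came close to shPROX1 replicate 2 (18.4 CPM). KLF6 rose 1.48-fold (95% interval 1.20 to 1.82, log2 change 0.56 ± 0.15, edgeR adjusted p = 0.00391).

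The windows from 250 bases before to 50 bases after the RefSeq start (GRCh38.p14) are shown for KLF5 and KLF6, which rose together and whose windows differ in the boxes that the family binds. The KLF5 window is chr13:73054726-73055025 on the plus strand and the KLF6 window is chr10:3785160-3785459 on the minus strand, both written 5′ to 3′ along the gene. Capitals mark GC boxes (GGGCGG, or CCGCCC for the other strand) and CACCC boxes (CACCC, or GGGTG for the other strand).
KLF5: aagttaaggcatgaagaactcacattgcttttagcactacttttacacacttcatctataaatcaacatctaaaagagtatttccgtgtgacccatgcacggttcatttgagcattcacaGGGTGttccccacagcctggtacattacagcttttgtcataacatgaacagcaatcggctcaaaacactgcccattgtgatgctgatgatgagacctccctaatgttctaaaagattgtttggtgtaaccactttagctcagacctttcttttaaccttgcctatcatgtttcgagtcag
KLF6: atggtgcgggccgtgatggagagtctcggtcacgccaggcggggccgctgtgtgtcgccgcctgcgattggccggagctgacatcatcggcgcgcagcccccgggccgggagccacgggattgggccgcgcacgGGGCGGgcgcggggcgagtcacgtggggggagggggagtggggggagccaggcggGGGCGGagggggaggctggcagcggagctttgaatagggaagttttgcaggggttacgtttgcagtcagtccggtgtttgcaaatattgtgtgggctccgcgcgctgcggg
The KLF5 window held 1 CACCC box and 0 GC boxes in 40.7% G and C, and the KLF6 window held 2 GC boxes and 0 CACCC boxes in 70.7% G and C. A second RefSeq start of KLF5, in chr13:73058755-73059054, had 2 boxes of each kind in 71.3% G and C. The lack of GC boxes thus holds for the KLF5 window shown and not for its second start. Of all 35116 windows of this length 45.0% held a GC box and 59.9% a CACCC box, on either strand, so such matches are common and describe the letters only.

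KLF4, one of the reprogramming factors of stem cell biology and a factor of epithelial barriers, did not pass the test but lay near the threshold. Its gene (ENSG00000136826) lies on the minus strand of chromosome 9, 107484852 to 107490482. The control libraries held 13.7, 17.3, 11.9 and 16.2 CPM and the shPROX1 libraries 13.5, 19.8, 22.4 and 20.2 CPM. In 3 of 4 shPROX1 libraries KLF4 was above every control library, and shPROX1 replicate 1 lay within the control range. The log2 change was 0.38 ± 0.15 (95% interval 0.06 to 0.69, edgeR adjusted p = 0.0567). Without shPROX1 replicate 1 the value was 0.51 (edgeR adjusted p = 0.00871) and without control replicate 2 it was 0.46 (edgeR adjusted p = 0.0385), both past the threshold. Over all alternatives the adjusted p of KLF4 ran from 0.00871 to 0.176.

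KLF2 and KLF7, the remaining activators, showed no difference past the threshold. KLF2, a factor of endothelial and T cell quiescence (ENSG00000127528, plus strand of chromosome 19, 16324817 to 16327874), was low in all libraries, with 6 to 13 counts each. Its level was 1.41, 2.47, 3.14 and 2.26 CPM in control and 2.79, 1.47, 2.67 and 2.79 CPM in shPROX1. The ranges overlapped, and at this depth the interval of the change was wide (log2 change 0.10 ± 0.32, 95% interval -0.57 to 0.76, edgeR adjusted p = 0.846). KLF7, known from axon growth (ENSG00000118263, minus strand of chromosome 2, 207074137 to 207167267), had 23.6, 28.1, 35.3 and 36.6 CPM in control and 32.8, 31.3, 27.8 and 33.2 CPM in shPROX1. The control libraries of KLF7 spread more widely (19.9% of the mean, against 8.62% from counting alone) than the shPROX1 libraries (7.97%). Its log2 change was 0.04 ± 0.12 (95% interval -0.20 to 0.28, edgeR adjusted p = 0.824).

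The start of KLF2 is shown because it was the only 1 of the 13 RefSeq windows searched for members that held a match to the MEF2 motif, searched by its consensus on both strands. Capitals mark that match, at chr19:16324696-16324725 on the plus strand (GRCh38.p14).
KLF2: tataccgcggCTAAATTTAGgctgcgcccg
Of all 35116 windows 2.99% held the MEF2 motif. Windows were matched by symbol for 8 of the 10 members, without KLF3 and KLF10.

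KLF3, the CtBP-binding repressor of the set, was the most abundant in CPM and was not measurably different. Its gene (ENSG00000109787) lies on the plus strand of chromosome 4, 38664196 to 38701042. Levels were 41.7, 35.3, 34.6 and 42.1 CPM in control and 38.2, 37.9, 46.7 and 38.8 CPM in shPROX1. With 143 to 205 counts per library this was the narrowest interval of the 9 members (log2 change 0.09 ± 0.09, 95% interval -0.10 to 0.28, edgeR adjusted p = 0.497). The interval leaves room for a fold between 0.932 and 1.21. KLF3-AS1, an antisense neighbour that shares 4.22% of the exon bases of KLF3, had 9 counts over the control libraries and 7 over the shPROX1 libraries.

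KLF10, which is induced early by TGF-beta, had the lowest adjusted p of the set. Its gene (ENSG00000155090) lies on the minus strand of chromosome 8, 102648779 to 102655902. Levels were 27.8, 22.4, 23.5 and 23.8 CPM in control and 30.3, 39.6, 37.4 and 33.0 CPM in shPROX1. All shPROX1 libraries lay above all control libraries, with control replicate 1 the nearest to them. KLF10 rose 1.46-fold (95% interval 1.25 to 1.69, log2 change 0.54 ± 0.10, edgeR adjusted p = 2.82e-04), on 91 to 162 counts per library.

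KLF9 and KLF13 belong to the same SIN3A-binding group. KLF9, a glucocorticoid and thyroid hormone response factor (ENSG00000119138, minus strand of chromosome 9, 70384597 to 70414624), was the 1 member below the filter. It had 1, 5, 5 and 2 counts in control against 5, 6, 2 and 8 in shPROX1, which overlap, and no difference was detectable at this depth. KLF13, a factor of heart development and T cells (ENSG00000169926, plus strand of chromosome 15, 31326855 to 31435665), had 14.1, 16.0, 12.6 and 13.6 CPM in control and 10.7, 11.0, 11.7 and 11.9 CPM in shPROX1. All shPROX1 libraries of KLF13 were below all control libraries, as in 32.3% of all tested genes in either direction. The edgeR test over all genes did not call it (log2 change -0.29 ± 0.14, 95% interval -0.57 to -0.003, adjusted p = 0.109). Its adjusted p ran from 0.0888 to 0.305 over all alternatives.

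KLF11, the close relative of KLF10, was the 1 member that fell. Its gene (ENSG00000172059) lies on the plus strand of chromosome 2, 10042849 to 10054836, and 9.07% of its exon bases are shared with an antisense gene that had 0 counts in all libraries. Levels were 11.8, 13.3, 12.1 and 13.4 CPM in control and 9.08, 8.07, 10.9 and 9.07 CPM in shPROX1. The groups did not overlap, and shPROX1 replicate 3 was the nearest to control. KLF11 fell by 0.43 ± 0.15 on the log2 scale (95% interval -0.73 to -0.12, edgeR adjusted p = 0.0278), on 33 to 65 counts per library. This call was lost with DESeq2 (adjusted p = 0.110), with all genes kept in the edgeR fit (0.0838), and in 5 of 8 edgeR fits that left out 1 library: control replicate 2 (0.0628), control replicate 4 (0.0711), shPROX1 replicate 1 (0.0589), shPROX1 replicate 2 (0.0866) or shPROX1 replicate 4 (0.0587). Over all alternatives the adjusted p of KLF11 ran from 0.0180 to 0.110, and its log2 change stayed between -0.50 and -0.37.

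Both RefSeq windows of KLF11 are shown, the second because it held a cyclic AMP response element. They are chr2:10043579-10043878 and chr2:10043971-10044270 on the plus strand (GRCh38.p14), with GC and CACCC boxes in capitals as above. The second window held 7 GC boxes, the most of the member windows searched, and the KLF2 window held 6.
KLF11, first window: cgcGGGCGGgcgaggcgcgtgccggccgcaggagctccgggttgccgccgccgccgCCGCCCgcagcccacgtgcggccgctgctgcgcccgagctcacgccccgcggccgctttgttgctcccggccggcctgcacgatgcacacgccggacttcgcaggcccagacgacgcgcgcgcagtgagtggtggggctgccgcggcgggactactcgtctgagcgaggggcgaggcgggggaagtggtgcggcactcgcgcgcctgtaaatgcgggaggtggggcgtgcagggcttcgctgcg
KLF11, second window: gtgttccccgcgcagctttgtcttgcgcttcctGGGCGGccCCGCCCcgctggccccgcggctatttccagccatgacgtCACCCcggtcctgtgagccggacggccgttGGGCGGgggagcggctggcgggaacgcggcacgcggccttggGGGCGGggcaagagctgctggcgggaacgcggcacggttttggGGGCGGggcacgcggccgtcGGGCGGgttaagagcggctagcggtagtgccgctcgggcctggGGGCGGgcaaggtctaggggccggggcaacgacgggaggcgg
The first window held 2 GC boxes and 0 CACCC boxes, and its RefSeq start lies 980 bases inside the gene as the files place it. The second held 1 CACCC box, which overlaps a cyclic AMP response element (TGACGTCA), a sequence present in 1.85% of all windows and in 1 of the 13 windows of members. In the first window listed for each of 8 members, 5 held a GC box and 3 a CACCC box.

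**Figure D2:**
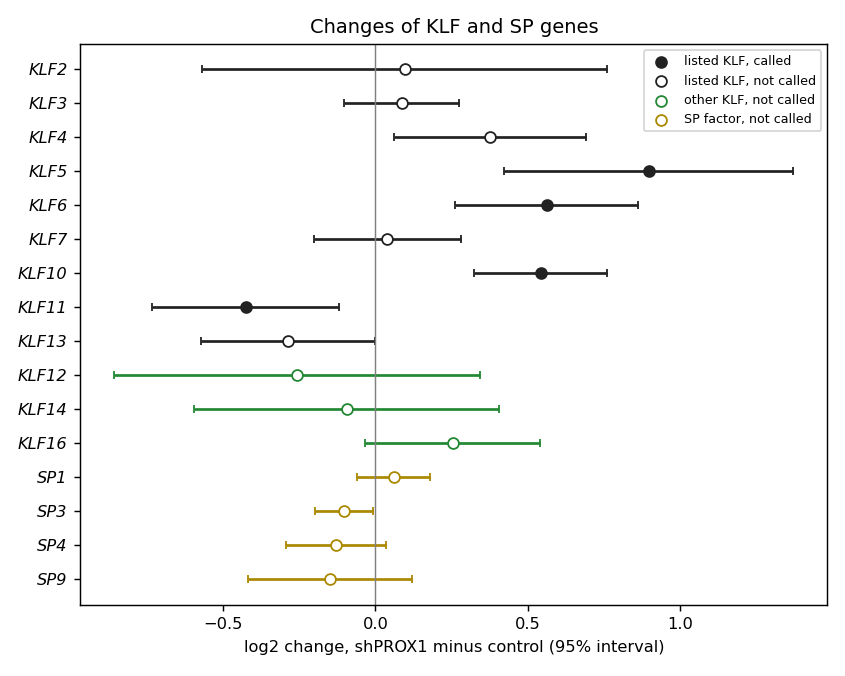
Log2 change (shPROX1 minus control, horizontal axis) with its 95% interval from the edgeR fit for the 9 listed KLF genes past the filter, 3 other KLF genes and 4 SP genes; filled points passed the adjusted threshold of 0.05. KLF5, KLF6 and KLF10 lie to the right of 0 and KLF11 to the left, and none of the 7 relatives is filled.

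Levels between genes were compared per exon length, as TPM (counts per kilobase of exon, scaled to 1000000 in every library). In control KLF3 (18.9 ± 2.76 TPM) and KLF10 (18.8 ± 1.44 TPM) stood highest, and their ranges overlapped. KLF10 and the next gene, KLF4 (12.5 ± 2.68 TPM), did not overlap. KLF4, KLF7 (10.4 ± 2.75 TPM), KLF11 (8.54 ± 1.16 TPM) and KLF6 (7.32 ± 1.88 TPM) each overlapped with their neighbour in that order. Below a gap came KLF13 (4.62 ± 0.547 TPM), KLF2 (3.58 ± 1.17 TPM) and KLF5 (3.15 ± 0.878 TPM), again with overlap between neighbours, and KLF9 was lowest (0.461 ± 0.308 TPM). In shPROX1 KLF10 was first (27.7 ± 3.72 TPM), overlapping with KLF3 (20.3 ± 2.56 TPM), which here overlapped with KLF4 (16.4 ± 3.50 TPM). KLF6 (11.0 ± 2.08 TPM) lay between KLF4 and KLF7 (10.7 ± 0.629 TPM), overlapping with both. KLF11 (6.40 ± 0.944 TPM) and KLF5 (5.85 ± 0.923 TPM) overlapped in shPROX1, whereas KLF5 did not overlap with KLF13 (3.80 ± 0.213 TPM) below it. KLF13, KLF2 (3.80 ± 0.999 TPM) and KLF9 (0.761 ± 0.328 TPM) came last.

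KLF10 made up 21.4% ± 2.43 of the summed TPM of the 10 genes in control and 26.0% ± 2.57 in shPROX1. KLF11 made up 9.67% ± 0.477 and 6.0% ± 0.59, and KLF5 3.59% ± 1.05 and 5.51% ± 0.908. The summed TPM itself was 78.6 to 104 in control and 95.3 to 120 in shPROX1, so the shares also move with that total. The TPM ratio of KLF10 to KLF11, chosen after the values were seen, was 2.71, 1.93, 2.22 and 2.05 in control against 3.82, 5.63, 3.91 and 4.17 in shPROX1. The 4 ratios in shPROX1 all lie above those in control, as the opposite directions of both genes fix, and were not tested.

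**Figure D3:**
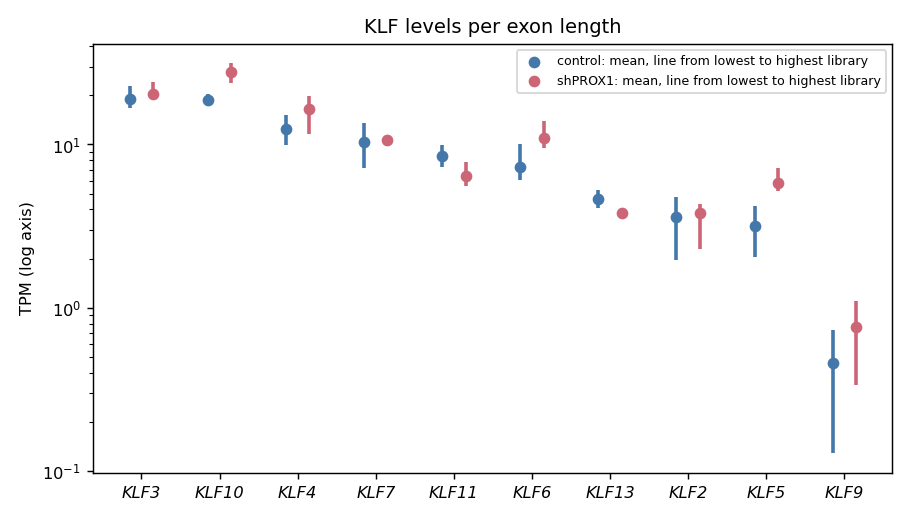
TPM of the 10 KLF genes (log axis), ordered by the control mean, with points for the mean of 4 libraries and lines from the lowest to the highest library. The means of KLF3 and KLF10 stand highest in both groups, and KLF3 overlaps with KLF4 in shPROX1. KLF9 stands lowest, at 0.461 TPM in control and 0.761 TPM in shPROX1.

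The other 8 KLF genes and the 9 SP genes, whose proteins share the same type of zinc fingers, showed no called member. Of these, 3 KLF and 4 SP genes passed the filter, and edgeR, DESeq2 and limma voom each called 0 of 7. Over all tested genes edgeR called 35.2%. At an unadjusted edgeR p under 0.05 there was 1 of the 7, SP3. SP3, a ubiquitous factor that competes for GC boxes, had 289 to 308 CPM in control and 274 to 284 CPM in shPROX1. Its groups did not overlap, as in 32.3% of all tested genes (log2 change -0.10 ± 0.05, edgeR adjusted p = 0.0912). Without control replicate 1 SP3 passed the threshold (edgeR adjusted p = 0.0471, with a range of 0.0471 to 0.329 over alternatives). SP1, the founding GC box factor, had 113 to 126 CPM in control and 116 to 129 CPM in shPROX1 (0.06 ± 0.06), and SP4, a relative known from neurons, 46.5 ± 3.81 and 41.9 ± 2.60 CPM (-0.13 ± 0.08). KLF16, a repressor of the SIN3A group, had 13.6 ± 0.862 and 15.9 ± 2.58 CPM (0.25 ± 0.14), and 16.3% of its exon bases are shared with an antisense gene at 0 counts. KLF12, a CtBP-binding repressor (-0.26 ± 0.29), and KLF14, a member of the SIN3A group (-0.09 ± 0.24), were low, with summed counts of 81 and 63, and 97 and 85, in control and shPROX1. SP9 (-0.15 ± 0.13) shares 63.7% of its exon bases with a gene on the opposite strand. KLF1, which drives red cell genes, and SP5 were at 0 counts in all libraries, and KLF8, KLF15, KLF17 and KLF18 had at most 4 counts over the 4 libraries of a group.

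Of 10 corepressor genes that KLF proteins can recruit, all measured, 1 rose and 3 fell (median log2 change 0.03), a share of called genes near the 35.2% of all tested genes. SIN3A, the scaffold that KLF10 and KLF11 can bind, fell (46.4 ± 7.61 against 35.0 ± 4.02 CPM, log2 change -0.39 ± 0.11), as did the demethylase KDM1A (-0.27 ± 0.05) and the deacetylase HDAC2 (-0.17 ± 0.05), while the deacetylase HDAC1 rose (0.23 ± 0.06). The ranges of SIN3A overlapped, since control replicate 1 held 35.8 CPM, and those of HDAC1 overlapped too. The KLF3 partners CTBP1 (-0.04 ± 0.05) and CTBP2 (0.09 ± 0.05), singled out after their values were seen, did not pass, and CTBP2 shares 31.2% of its exon bases with ZRANB1 on the opposite strand. Of 6 coactivator genes edgeR, DESeq2 and limma voom each called 0 (median 0.02), with 1 at an unadjusted edgeR p under 0.05. The edgeR share of all tested genes was 35.2%. Of 11 genes that control the stability of KLF proteins, 1 rose and 1 fell (median 0.03), 18.2% of the list and below the 35.2% of all tested genes. The ubiquitin ligase SMURF2 rose from 92.7 ± 3.82 to 206 ± 9.67 CPM (1.17 ± 0.05), and VHL, the substrate receptor of another ligase, fell (-0.25 ± 0.07).

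Genes upstream of the KLF factors are described by route. In the TGF-beta and SMAD list, the route to KLF10 and KLF11, edgeR called 4 of 12 higher and 0 lower (median log2 change 0.27). Its called share of 33.3% lies near the 35.2% of all tested genes, of which 17.3% were higher and 17.9% lower. Unadjusted p was under 0.05 for 5 higher and 1 lower of this list, and DESeq2 and limma voom also called 4 and 0. The receptors TGFBR1 (174 ± 10.4 to 231 ± 7.62 CPM, log2 change 0.43 ± 0.05) and TGFBR2 (0.52 ± 0.07) rose, with SMURF2 and with SMAD7, an inhibitor of the pathway (7.37 ± 1.17 to 12.0 ± 2.29 CPM, 0.72 ± 0.18). The groups did not overlap in 6 of the 12 genes, beside 32.3% of all tested genes. These were the 4 called genes and TGFB1, all higher in shPROX1, and SMAD4, which was lower. TGFB1 and SMAD4 did not pass the test. In the ERK5 and MEF2 list, the route to KLF2 and KLF4, 2 of 11 measured genes rose and 3 fell (median -0.20), which is 45.5% called, beside 35.2% of all tested genes. MEF2C fell from a mean of 34.7 to 24.3 CPM (-0.49 ± 0.10), MEF2A (-0.29 ± 0.09) and the deacetylase HDAC9 (-0.75 ± 0.24) fell, and the kinase MAP3K3 rose (0.33 ± 0.08). MEF2A shares 11.1% of its exon bases with LYSMD4 on the opposite strand. DESeq2 called 2 higher and 1 lower in the ERK5 and MEF2 list.

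Of 8 measured glucocorticoid genes 3 rose and 3 fell (median -0.06), beside 17.3% higher and 17.9% lower among all tested genes. TSC22D3, a glucocorticoid target, fell from 85.3 ± 4.18 to 47.6 ± 1.81 CPM (-0.82 ± 0.07). The clock gene PER1 (-0.46 ± 0.14) and the receptor gene NR3C1 (-0.21 ± 0.06) fell too. The kinase SGK1 (0.66 ± 0.06), the phosphatase DUSP1 (0.54 ± 0.13) and ERRFI1 (0.24 ± 0.05) rose. FKBP5, also a glucocorticoid target, did not pass the test (-0.02 ± 0.08). Among 14 measured clock genes, of which several KLF genes are outputs in other tissues, 1 rose and 2 fell (median -0.10), so that 21.4% were called, below the 35.2% of all tested genes. BHLHE40 rose (0.60 ± 0.19), and TEF (-0.77 ± 0.20) and PER1 fell. The ranges of BHLHE40 and of PER1 overlapped between the groups. Immediate early genes, the class to which KLF4, KLF6 and KLF10 often belong, counted 7 higher and 3 lower among 15 measured (median 0.24), which is 66.7% called against 35.2% of all tested genes. FOSL1 (1.47 ± 0.21), ARC (1.16 ± 0.28) and JUN (39.2 ± 2.73 to 83.1 ± 5.25 CPM, 1.11 ± 0.07) rose and JUNB (-0.71 ± 0.11) fell. JUNB shares 14.2% of its exon bases with HOOK2 on the opposite strand. The summed level of the 22 immediate early genes was 571 to 615 CPM in control and 625 to 657 CPM in shPROX1.

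**Figure D4:**
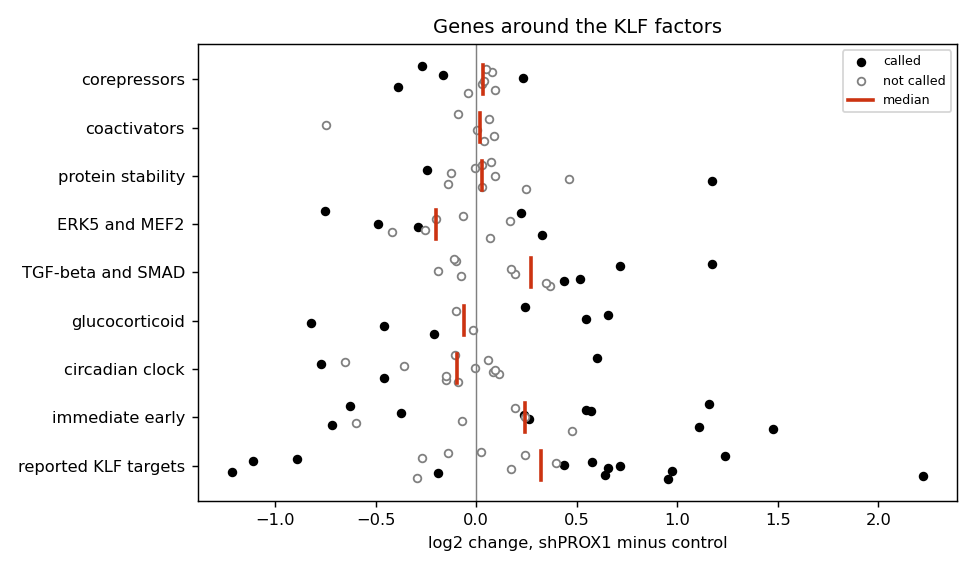
Log2 change (shPROX1 minus control, horizontal axis) of each measured gene in 9 lists around the KLF factors, filled where called, with the list's median as a red line. The medians run from -0.20 for the ERK5 and MEF2 list to 0.32 for the reported targets, and the called genes of the TGF-beta and SMAD list all lie to the right of 0.

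Of 28 genes reported elsewhere as targets of 1 or more KLF proteins 20 were measured, 9 rose and 4 fell (median log2 change 0.32), beside 17.3% higher and 17.9% lower among all tested genes. The median size of change regardless of sign was 0.61, beside 0.18 over all tested genes, again not matched for expression level. The actin-binding protein TAGLN rose (6.96 ± 1.77 against 16.0 ± 1.46 CPM, 1.24 ± 0.18). The cell cycle inhibitor CDKN1C (4.65 ± 0.623 to 1.91 ± 1.09 CPM, -1.21 ± 0.33) and muscle creatine kinase CKM (-1.11 ± 0.14) fell. Genes of this list are also targets of many other factors, and the part of the KLF genes in their changes was not tested.

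**Figure D5:**
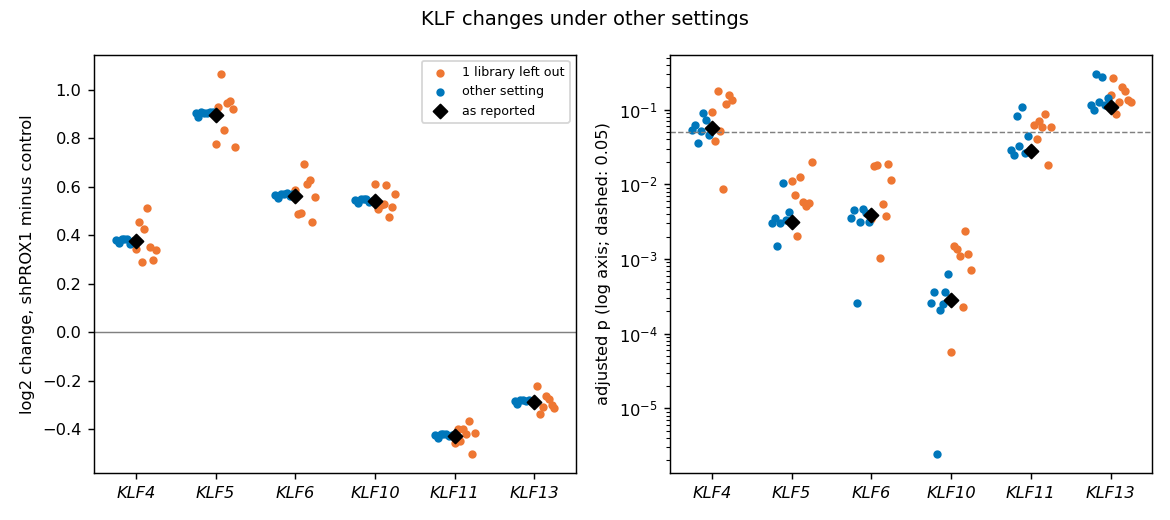
Log2 change (left) and adjusted p (right, log axis) of 6 KLF genes as reported (diamonds), with 1 library left out (orange) and under the other settings (blue). KLF5, KLF6 and KLF10 stay under the dashed 0.05 line in all settings run, KLF11 and KLF4 cross it, and KLF13 stays above it.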

How the data were processed

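Each of the 8 deposited files lists whole-number counts for the genes of 1 library. Per the submitters' processing notes, the authors used FastQC, HISAT2, HTSeq and DESeq2 with GRCh38 (hg38). Their versions, the annotation release and the strand setting are not given in the sources used here. The library kit is directional per the labels' protocols, but without a stated strand setting the reads of overlapping genes cannot be told apart. Of 58302 genes 58039 matched GENCODE 29, which gave exon lengths. Symbols came from a gene name table, and promoter windows from RefSeq (GRCh38.p14).

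The quasi-likelihood F test of edgeR 4.0.16 (R 4.3.3) was run on counts with group as its single factor, after filterByExpr and TMM scaling, with p values adjusted over all 12392 tested genes at 0.05. CPM used each library's total count. Standard errors are those of the fitted coefficient. The pipeline was also run on counts simulated with the spread fitted to these data, the same in both groups. That run cannot check unequal spread between the groups. The check for duplicate libraries covered 12 within-group pairs. Chi-square per degree of freedom ran from 1.19 (replicates 1 and 2) to 2.16 in shPROX1 and from 2.39 to 6.34 in control. Counting error alone gives about 1. The shPROX1 libraries thus differed less from each other than the control libraries did. All libraries were kept as separate replicates, and p values measure only the spread between them.

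The members, lists and alternatives were chosen with earlier results of these data known. Named genes were the members, PROX1, every other KLF or SP gene past the filter, up to 4 called genes with the largest change per list at 1 CPM or more, and the 3 profiles most like the most changed called member (log2 of CPM plus 0.5). SP5 and KLF1, and cell type markers, are named besides, and some list genes that the rule would name are not reported here. Alternatives tried were scaling by RLE or by the upper quartile, testing every gene, a filter of 1 CPM in 4 libraries, DESeq2 1.42.0, limma 3.58.1 voom, a replicate block and each library left out. A planned comparison of protein sequences was not made. Python 3.11.15 drew figures and made counts.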

Additional observations from a re-analysis of the deposited data

Results flagged for a closer look

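KLF2 in shPROX1 replicate 2 was at 1.47 CPM, apart from the other 3 shPROX1 libraries at 2.67 to 2.79 CPM. It rests on 6 counts. KLF3 in shPROX1 replicate 3 was at 46.7 CPM, apart from the other 3 at 37.9 to 38.8 CPM. These were the 2 groups with a library that stood apart by Dixon's ratio at the 95% level, out of 36 groups tested, and chance gives about 1 in 20.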

How the results depend on the processing

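PROX1, KLF5, KLF6 and KLF10 kept their direction and their call in all 15 alternatives each. The adjusted p was at most 0.0198 for KLF5, 0.0190 for KLF6 and 0.00239 for KLF10. The number of KLF members called was 3 to 5 over all alternatives, beside 4 as reported. The count of members that fell was 0 with DESeq2 and 0 without a filter on low counts, and 0 to 1 when 1 library was left out, because of KLF11. The other KLF and SP genes counted 0 to 1 when 1 library was left out. Directions turned for uncalled genes: with 1 library left out the log2 change of KLF2 ran from -0.071 to 0.27, of KLF7 from -0.068 to 0.14 and of KLF14 from -0.26 to 0.10. KLF2 and KLF7 turned without control replicate 1, and KLF14 without it and without shPROX1 replicate 2 (0.04). The ERK5 and MEF2 list counted 3 called genes with DESeq2 beside 5, and coactivators 1 without control replicate 2 beside 0. Equal replicate numbers gave no sign of paired libraries: correlations of their deviations were -0.05 to 0.05, and 1 of 8 libraries correlated best with its own number. Counting error can hide a shared deviation, so the check cannot show that the libraries were unpaired. With the replicate number as a block 4187 genes were called beside 4364, and 5 members beside 4, as KLF4 passed (adjusted p = 0.0459). KLF4 also passed without a filter on low counts (adjusted p = 0.0355). The median change of all genes moved by less than 0.1 under each scaling. KLF9, below the filter as reported, was not called where it could be tested (lowest adjusted p = 0.279). Depth limits KLF2 and KLF9 most, at 13 counts or fewer per library.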
